A study of Homo sapiens with 32 samples.

Results

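Insulin and insulin-like growth factors act through receptor tyrosine kinases, and 5 genes of that route are described here across androgen treatments of prostate cancer cells. IGF1R encodes the receptor for insulin-like growth factor 1. IRS1 and IRS2 encode insulin receptor substrates, the docking proteins that an active receptor phosphorylates. PIK3R1 encodes regulatory subunits of phosphoinositide 3-kinase, which bind those docking proteins and hold the catalytic subunit in check until they do. INPP4B encodes a phosphatase that removes a phosphate from a lipid product of the kinase and is known as an androgen-induced gene in prostate cells.

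Members were the start sites whose position and strand fell in the hg19 window of 1 of the 5 genes, because neither table gives gene names for its sites. They made up 12 of 32828 rows in both tables together, 7 of 19534 in the R1881 table and 5 of 13294 in the table of both lines. No row used here lay in the IRS1 window, so IRS1 was not analysed here, and 4 genes with 8 distinct start sites remained. These are 4 sites at 3 starts of PIK3R1 (the first start has its own position in each table), 1 site each of IGF1R and IRS2, and 2 sites of INPP4B.

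The measurements are 32 libraries of cap analysis of gene expression (CAGE), in which each tag marks the capped 5′ end of an RNA. LNCaP, an androgen-responsive human prostate cancer line, received the synthetic androgen R1881 for 0, 3, 6, 12, 18, 48 or 72 h, with 2 libraries per time and no vehicle library after 0 h. The sample characteristics give 1 nM R1881 and the shared protocol 10 nM, so the dose is uncertain. BicR (a name that the labels leave unexplained) is the other prostate cancer line, and it and LNCaP each received 10 nM dihydrotestosterone (DHT, a natural androgen), DHT with 1 µM bicalutamide (an androgen receptor antagonist), bicalutamide alone or the vehicle ethanol, with 1 library at 6 h and 1 at 24 h. Each line also gave 1 library before treatment. All cells had been kept in medium with hormone-stripped serum before treatment. The labels do not say whether the replicates came from separate cultures, so p-values measure the spread between these libraries, which may be technical. Levels are given in RPM, tag counts scaled to a common library total. In bulk RNA, fewer cells of a kind and less RNA per cell cannot be told apart.

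Depth and a few odd libraries limit the values. The R1881 libraries held 128463 to 3837493 tags, with 3 tags worth 0.691 to 19.4 RPM, and every replicate 1 library was shallower than every replicate 2 library. The libraries of both lines held 4139807 to 7753336 tags, and 3 tags were worth 0.326 to 0.601 RPM. In the time course, replicate 2 of 6 h and of 18 h stood apart, with mean correlations to the other libraries of 0.607 and 0.646, and lay closest to each other (r = 0.940). The library labelled BicR DHT with bicalutamide 6 h lay closest to LNCaP with the same treatment (r = 0.954). At 22 sites at least 8-fold apart between the lines at 24 h, it was nearer to BicR at 8 and to LNCaP at 14, whereas the other 9 libraries of 0 and 6 h were nearer to their own line at all 22. Markers of the lines' cell type could not be looked up, because no gene annotation of the hg19 build was used here.

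The start sites of PIK3R1 carry the clearest result, so their promoters are shown with those of IGF1R and IRS2. The windows come from RefSeq on GRCh38.p14, 250 bases before to 50 after each annotated start, and were not placed on hg19. The listed PIK3R1 sites lay 72675 and 74905 bp after the first one, and the second and the third RefSeq starts lie 72763 and 74908 bp after the first, differences of 88 and 3 bp. On that spacing the 3 listed sites were matched to the first 3 of 4 RefSeq starts, and no listed site matched the fourth, 76821 bp after the first. PIK3R1 is known to give p85α from its upstream promoter and the shorter p55α and p50α from internal ones. Capitals mark the GC box GGGCGG, the CCAAT box CCAAT and the hexamer AGAACA that makes up one arm of an androgen response element, each on either strand; overlapping GC boxes run together.
IGF1R promoter, chr15:98648289-98648588, plus strand: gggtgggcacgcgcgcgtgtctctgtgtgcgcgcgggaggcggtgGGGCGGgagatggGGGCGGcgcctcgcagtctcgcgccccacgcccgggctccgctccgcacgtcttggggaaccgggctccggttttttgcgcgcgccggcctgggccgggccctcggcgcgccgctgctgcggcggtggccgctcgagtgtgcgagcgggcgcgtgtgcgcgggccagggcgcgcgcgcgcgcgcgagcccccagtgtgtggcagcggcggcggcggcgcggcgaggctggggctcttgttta
IRS2 promoter, chr13:109786534-109786833, minus strand: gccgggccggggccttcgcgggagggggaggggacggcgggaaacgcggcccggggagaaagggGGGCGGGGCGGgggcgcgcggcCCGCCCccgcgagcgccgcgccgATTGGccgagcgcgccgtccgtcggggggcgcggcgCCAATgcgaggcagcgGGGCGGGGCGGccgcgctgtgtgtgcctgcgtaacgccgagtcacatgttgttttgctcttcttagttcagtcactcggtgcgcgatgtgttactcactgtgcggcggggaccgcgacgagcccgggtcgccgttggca
The first PIK3R1 promoter, chr5:68215506-68215805, plus strand: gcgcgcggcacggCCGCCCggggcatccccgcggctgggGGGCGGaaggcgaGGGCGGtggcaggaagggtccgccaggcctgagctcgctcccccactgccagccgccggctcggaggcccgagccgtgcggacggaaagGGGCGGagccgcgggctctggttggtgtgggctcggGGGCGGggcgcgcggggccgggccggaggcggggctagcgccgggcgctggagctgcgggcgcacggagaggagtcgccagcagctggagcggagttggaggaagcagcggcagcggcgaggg
The second PIK3R1 promoter, chr5:68288269-68288568, plus strand: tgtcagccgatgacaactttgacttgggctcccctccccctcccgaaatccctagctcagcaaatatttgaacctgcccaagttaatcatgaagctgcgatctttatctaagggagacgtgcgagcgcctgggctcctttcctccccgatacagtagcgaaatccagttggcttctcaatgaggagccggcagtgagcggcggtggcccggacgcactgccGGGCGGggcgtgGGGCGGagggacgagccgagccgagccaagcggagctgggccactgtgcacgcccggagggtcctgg
The third PIK3R1 promoter, chr5:68290414-68290713, plus strand: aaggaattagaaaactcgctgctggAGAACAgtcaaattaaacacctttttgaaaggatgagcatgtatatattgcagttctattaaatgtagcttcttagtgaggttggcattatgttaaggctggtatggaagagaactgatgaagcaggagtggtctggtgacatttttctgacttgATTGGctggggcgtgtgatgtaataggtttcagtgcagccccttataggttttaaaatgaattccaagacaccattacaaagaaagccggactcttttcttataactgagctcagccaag
The 3 PIK3R1 promoters differed in base composition, with 80.0% G and C in the first, 62.3% in the second and 40.0% in the third. The first held 5 GC boxes, the second 2 and the third 0, against 44.95% of all 35116 RefSeq promoters with at least 1. The third held 1 CCAAT box and 1 AGAACA, which 34.61% and 14.79% of all promoters hold. IRS2 held 5 GC boxes and 2 CCAAT boxes at 75.7% G and C, and IGF1R 2 GC boxes at 79.7%. The full element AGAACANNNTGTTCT was in none of these 5 windows and in 1 of the 35116. The TATA box TATAAA, the forkhead motif GTAAACA and the E-box CACGTG were also in none of the 5 and in 11.53%, 3.42% and 7.26% of all promoters. These are matches of letters, not sites shown to be bound. INPP4B has 6 RefSeq starts, and its listed site could not be tied to 1 of them, so no promoter of it is shown.

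With R1881, the IRS2 start rose and the second and the third PIK3R1 starts fell at 48 and 72 h. At each of these times 3 of the 6 member sites tested passed an adjusted p of 0.05, with 1 higher and 2 lower. Of all 15999 sites, 1.89% passed at 48 h (1.39% higher, 0.494% lower) and 2.5% at 72 h (1.51% higher, 0.988% lower). The median log2 change over the 6 was 0.27 at 48 h and 0.30 at 72 h, with 3 sites above 0 and 3 below, against -0.02 and 0.01 over all sites. The same 3 sites passed when 48 and 72 h were set against 3 and 6 h, a comparison without the 0 h libraries in which 5.95% of 13929 sites passed (3.31% higher, 2.64% lower). All comparisons with 0 h share its 2 libraries. Libraries with the same replicate number shared deviations across times, and depth differed by number too. With the replicate number as a block 6 of 6 member sites passed at 48 h and 5 of 6 at 72 h, against 8.54% and 12.2% of all sites.

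**Figure D1:**
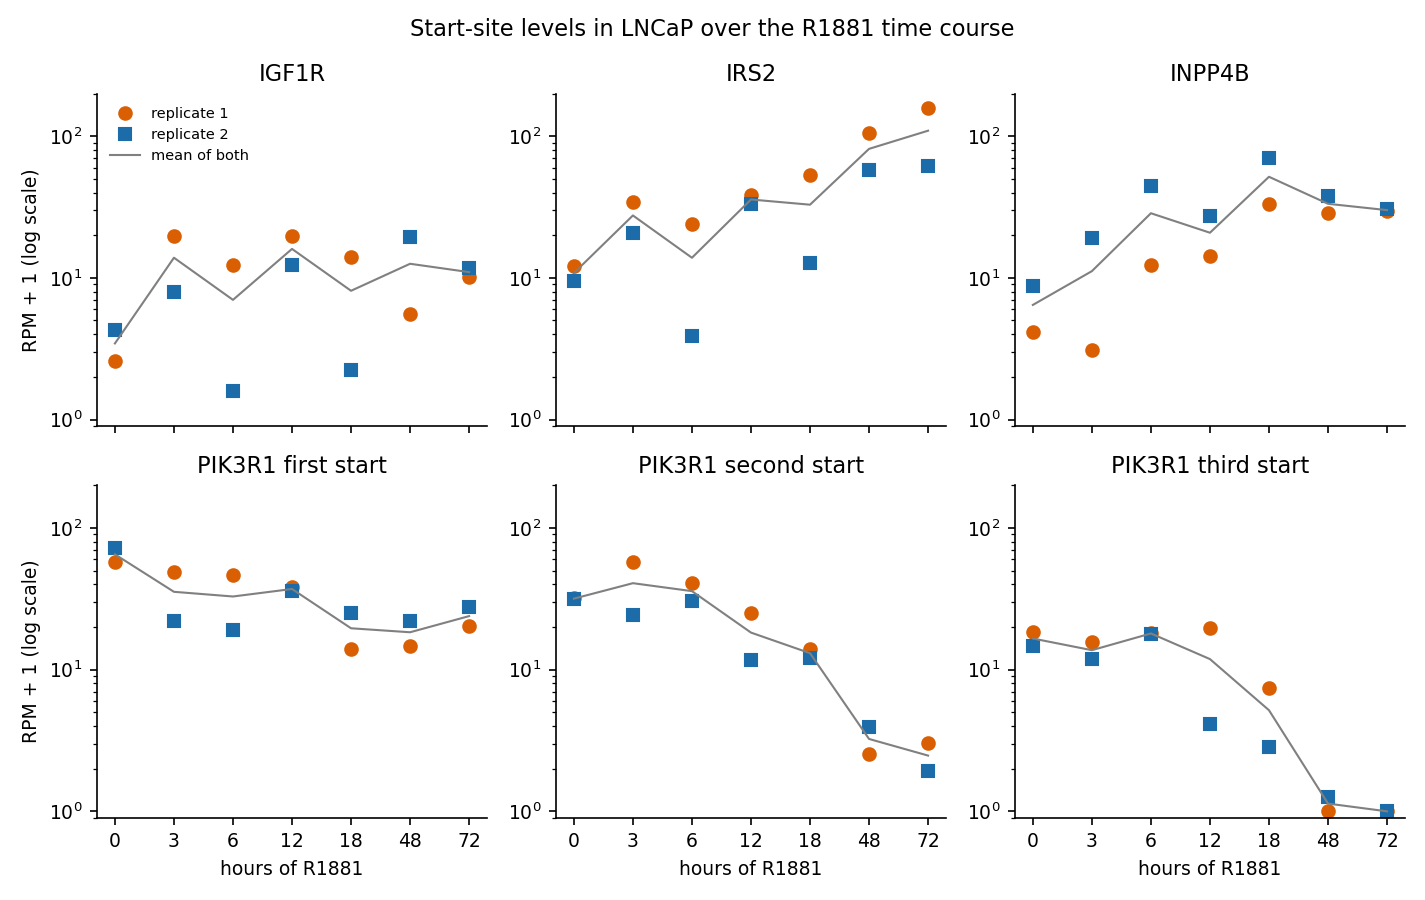
RPM + 1 on a log axis against hours of R1881 in LNCaP for the 6 start sites tested, with 1 point per library (circles replicate 1, squares replicate 2) and a line through the mean of both. IRS2 lies above its 0 h libraries at 48 and 72 h, and the second and the third PIK3R1 starts fall to 2.96 RPM or less in all 4 libraries of those times.

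The IGF1R start (hg19, chr15:99191633-99191822, plus strand) was low at 0 h and uneven afterwards. Its levels, like those of the sites below, are given for the 7 times of 0, 3, 6, 12, 18, 48 and 72 h. From 0 to 72 h in order of time, replicate 1 had 1.58, 18.8, 11.4, 18.6, 13.0, 4.59 and 9.13 RPM. Replicate 2 had 3.31, 6.98, 0.583, 11.4, 1.24, 18.6 and 10.8 RPM. The libraries at 3, 12, 48 and 72 h all lay above both at 0 h, and the 2 below them were the odd replicate 2 libraries of 6 and 18 h. The log2 change was 2.32 ± 0.915 (SE, n = 2 each, adjusted p = 0.274) at 48 h and 1.98 ± 0.918 (adjusted p = 0.312) at 72 h, so neither passed. With the replicate block it passed at 48 h (adjusted p = 0.0492) and not at 72 h (adjusted p = 0.0964). Late against early times it differed by 1.21 ± 0.744 (adjusted p = 0.358). The levels rest on 2 to 9 tags per library in replicate 1 and on 1 to 69 in replicate 2.

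The IRS2 start (hg19, chr13:110438878-110439039, minus strand) rose late in the time course. From 0 to 72 h in order of time, replicate 1 had 11.1, 33.4, 22.8, 37.2, 51.9, 104 and 156 RPM. Replicate 2 had 8.54, 19.8, 2.92, 32.2, 11.8, 56.7 and 60.3 RPM. Every library at 48 and 72 h lay above every earlier one. The lowest level after 0 h was at 6 h in both replicates, and replicate 2 was also low in the odd library of 18 h. IRS2 averaged 108 ± 67.8 RPM at 72 h and 9.81 ± 1.79 RPM at 0 h (SD, n = 2 each). Against 0 h the log2 change was 3.08 ± 0.727 (adjusted p = 0.0436) at 48 h and 3.50 ± 0.733 (adjusted p = 0.0220) at 72 h. Late against early times it was 2.76 ± 0.545 (adjusted p = 0.0169, n = 4 each). At 12 h IRS2 passed with the block alone (adjusted p = 0.0322), where 1.98% of sites did. The call at 48 h was lost without any 1 of the 4 libraries compared (adjusted p = 0.0918 to 0.367) and under RLE scaling (0.0518) or library totals alone (0.0583). At 72 h it was lost without replicate 1 of 72 h (0.109) or either 0 h library (0.123 and 0.220), and late against early without replicate 2 of 3 h (0.0590).

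The first PIK3R1 start (hg19, chr5:67511529-67511752, plus strand), matched to the promoter of p85α, was lower after R1881 but did not pass the test. From 0 to 72 h in order of time, replicate 1 had 57.0, 47.9, 45.6, 37.2, 13.0, 13.8 and 19.3 RPM. Replicate 2 had 71.4, 20.9, 18.1, 35.0, 24.2, 21.0 and 26.5 RPM. All 12 treated libraries lay below both 0 h libraries. Against 0 h this start differed by -1.77 ± 0.514 on the log2 scale (adjusted p = 0.106) at 48 h and -1.39 ± 0.499 (adjusted p = 0.173) at 72 h. With the replicate block it passed at both times (adjusted p = 0.0122 and 0.0318), and at 48 h also without the 2 odd libraries (0.0415). Between late and early times it differed by -0.51 ± 0.420 (adjusted p = 0.496).

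The second PIK3R1 start (hg19, chr5:67584155-67584450, plus strand) lay between 23.3 and 56.3 RPM up to 6 h and fell by 48 h. From 0 to 72 h in order of time, replicate 1 had 30.9, 56.3, 39.9, 23.9, 13.0, 1.53 and 2.03 RPM. Replicate 2 had 30.6, 23.3, 29.7, 10.6, 11.2, 2.96 and 0.921 RPM. The 4 libraries of 48 and 72 h, which held 18 tags of this start between them, lay below all others. On the log2 scale it changed by -3.47 ± 0.626 (adjusted p = 0.0120) at 48 h and -4.50 ± 0.675 (adjusted p = 0.00386) at 72 h. Against 3 and 6 h it was -4.24 ± 0.500 (adjusted p = 0.00174), and this call held without each of the 8 libraries in turn. The call against 0 h was lost at 48 h without any 1 of the 4 libraries (adjusted p = 0.0733 to 0.141) and at 72 h without replicate 2 of 72 h (0.109).

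The third PIK3R1 start (hg19, chr5:67586433-67586555, plus strand), matched to the promoter with 40.0% G and C and no GC box, fell to the limit of detection. From 0 to 72 h in order of time, replicate 1 had 17.4, 14.6, 17.1, 18.6, 6.48, 0 and 0 RPM. Replicate 2 had 13.8, 10.9, 16.9, 3.14, 1.86, 0.269 and 0 RPM. Only 1 tag was counted at 48 h and 0 at 72 h, against 72 at 0 h. At 48 h the pooled 0 h over 48 h ratio was 64.3 (95% interval 11.2 to 2576, counting error only). At 72 h the start was at least 8.35-fold lower, with 3 tags per library taken as the limit. The fitted test passed at 48 h (adjusted p = 0.0199), at 72 h (adjusted p = 0.00778) and late against early (adjusted p = 0.00296). The last call held without each of the 8 libraries in turn. The 48 h call was lost without any 1 of the 4 libraries (adjusted p = 0.0974 to 0.259) and the 72 h call without replicate 2 of 72 h (0.159).

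The shares of the PIK3R1 starts also differed late in the time course. At 72 h the first start gave 90.5% of the 21 PIK3R1 tags in replicate 1 (95% exact interval 69.6 to 98.8%) and 96.6% of 119 in replicate 2 (91.6 to 99.1%), against 54.1% of 133 (45.3 to 62.8%) and 61.7% of 420 (56.8 to 66.3%) at 0 h. At 48 h its shares were 90.0% of 10 tags and 86.7% of 90. Early shares of the first start were lower, without a test of these times. At 3 h it gave 40.4% of 57 and 38.0% of 142 tags, and at 6 h 44.4% of 18 and 27.9% of 111, each below both 0 h shares. The third start, at 16.5% and 11.9% at 0 h, gave 0 of 21 and 0 of 119 tags at 72 h, with upper interval bounds of 16.1% and 3.05%.

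**Figure D2:**
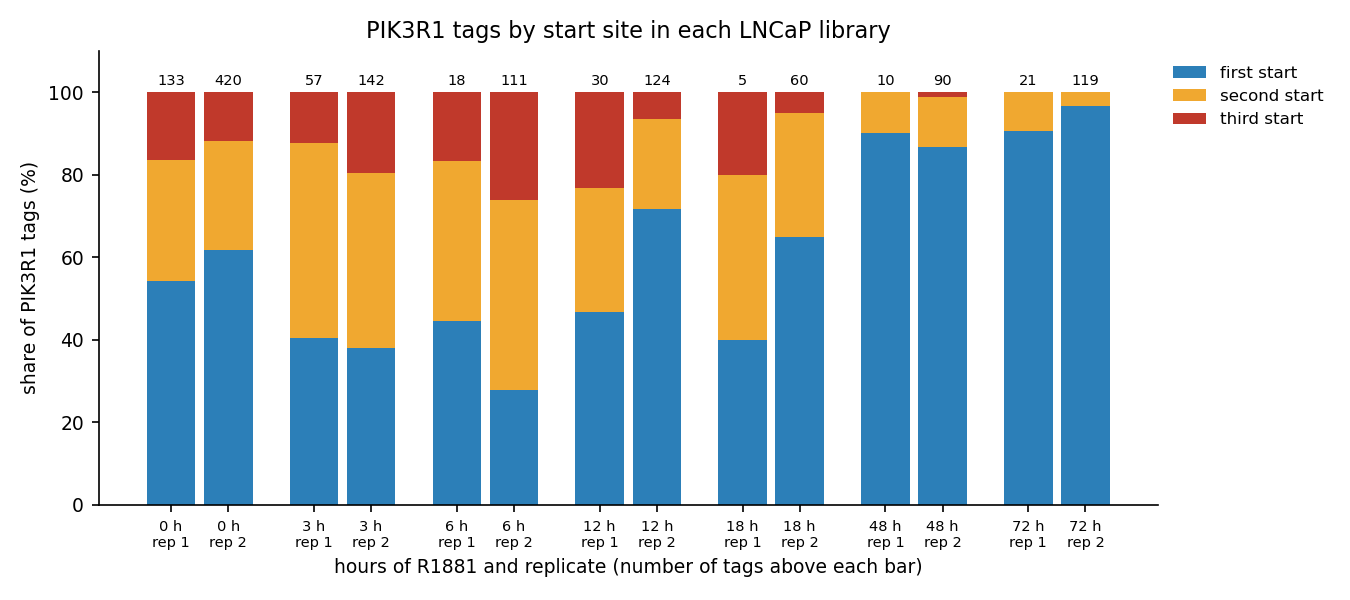
Share of PIK3R1 tags (%) at each of the 3 starts in every R1881 library, in order of time and replicate, with the number of tags above each bar. The first start gives 86.7% or more in the 4 libraries of 48 and 72 h and 71.8% or less in the other 10.

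A test of unequal change among the starts of a gene (edgeR's diffSpliceDGE with the Simes method) set the mean of 18, 48 and 72 h against 0 h. PIK3R1 passed with an adjusted p of 0.0150, as did 47 of 2037 groups of neighbouring sites. Relative to the gene, the third start fell by 2.30 on the log2 scale (adjusted p = 0.0107 over single sites). The second differed by -0.78 (adjusted p = 0.550) and the first by 0.28 (adjusted p = 1). The gene's call was lost without either 0 h library (adjusted p = 0.233 and 0.164) or without replicate 2 of 18 h (0.234), 48 h (0.111) or 72 h (0.200). Summed over its starts, PIK3R1 had 21.3 and 27.4 RPM at 72 h, against 105 and 116 RPM at 0 h, and the groups did not overlap. The sum fell by 2.37 ± 0.481 at 48 h (adjusted p = 0.0225) and by 2.08 ± 0.470 at 72 h (adjusted p = 0.0303) on the log2 scale.

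The leading INPP4B site (hg19, chr4:143522208-143522330, minus strand) lay 246.7 kb inside the upstream end of the gene's window, whereas the first sites of the other genes lay 1.6 to 2.1 kb inside theirs. From 0 to 72 h in order of time, replicate 1 had 3.16, 2.08, 11.4, 13.3, 32.4, 27.5 and 28.4 RPM. Replicate 2 had 7.71, 18.2, 43.7, 26.3, 68.9, 37.1 and 29.7 RPM. All libraries at 6 h and later lay above both at 0 h, yet no time passed the test without the block. In replicate 1 the site had 4 tags at 0 h, 2 at 6 h (below the limit of 3 tags) and 5 each at 12 and 18 h. The log2 change was 3.35 ± 0.772 at 18 h (adjusted p = 0.0518), 2.54 ± 0.746 at 48 h (adjusted p = 0.111) and 2.38 ± 0.740 at 72 h (adjusted p = 0.110). With the replicate block INPP4B passed at 6 h (adjusted p = 0.0101), 18 h (0.000613), 48 h (0.00171) and 72 h (0.00172), where 6.61%, 13.0%, 8.54% and 12.2% of all sites passed. At 6 h the log2 change of 2.64 was 0.84 without the odd replicate 2 library. At 18 h DESeq2, RLE scaling and no filter called it. Late against early times it differed by 0.56 ± 0.512 (adjusted p = 0.546). A further INPP4B site (hg19, chr4:143352822-143352838) had 4 tags in 3 of 14 libraries and was removed by the filter on low counts. Summed over both sites, INPP4B had 45.4 and 69.6 RPM at 18 h, against 3.16 and 7.71 RPM at 0 h, and this sum passed (log2 3.48 ± 0.715, adjusted p = 0.0421). The leading site alone did not pass, so the call of the sum rests on 3 tags of the filtered site at 18 h. Of these, 2 were in replicate 1, beside 5 of the leading site, and replicate 2 of 18 h is an odd library.

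Before 48 h, 0 of the 6 member sites passed at 3, 6, 12 or 18 h in edgeR's quasi-likelihood test. The background was 0.0% of sites at 3 and 6 h, 0.231% at 12 h and 0.988% at 18 h. Before adjustment, a p under 0.05 was reached by 0 member sites at 3 h, 1 at 6 h and 3 each at 12 and 18 h. DESeq2 called 0 at 3, 6 and 12 h and 1 at 18 h. The shares of all sites under that unadjusted p and in DESeq2 are not given here, so these counts are not read as results. The replicate block called 0 at 3 h, where 0.288% of all sites passed, and 1 at each of 6, 12 and 18 h. In the joint test of all times against 0 h, the second and the third PIK3R1 starts passed (adjusted p = 0.00866 and 0.0185), as did 1.6% of all sites, and IRS2 had an adjusted p of 0.0506. With the block 5 of the 6 passed it, all but IGF1R, as did 18.1% of all sites.

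In BicR, the starts of IGF1R, IRS2 and INPP4B were higher and the first PIK3R1 start lower with DHT. Every site of this table reached at least 10.0 RPM in some library, and 2 members did so only in treated BicR libraries. IGF1R reached it in 1 of 18 libraries, DHT at 6 h in BicR, and INPP4B in 3, those of BicR at 24 h with DHT, bicalutamide or both. Their place in the table thus rests on libraries of the groups in which they are high, so their higher levels in treated BicR, and differences between the lines that rest on them, are given as a description and the p-values beside them support nothing. IRS2 reached it in 10 libraries, 6 of BicR and 4 of LNCaP, none with ethanol or before treatment. Its place thus rests on treated libraries of both lines, so its p-values against ethanol support nothing either. The PIK3R1 starts reached it in 18 and 15, including all 4 ethanol libraries. With that limit, 4 of 5 member sites passed, 3 higher and 1 lower, where 3.33% of 13294 sites did (2.19% higher, 1.14% lower). In LNCaP, DHT changed 0 of the 5 by edgeR's quasi-likelihood test, where 0.113% of sites passed. DESeq2 called 0 there, and before adjustment 2 member sites reached a p under 0.05. The libraries at 6 and 24 h stand in for replicates in each treatment, and all treatments of a line share its 2 ethanol libraries. In this table PIK3R1 has its first and second starts only, the first at position 67511589, and INPP4B its leading site.

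**Figure D3:**
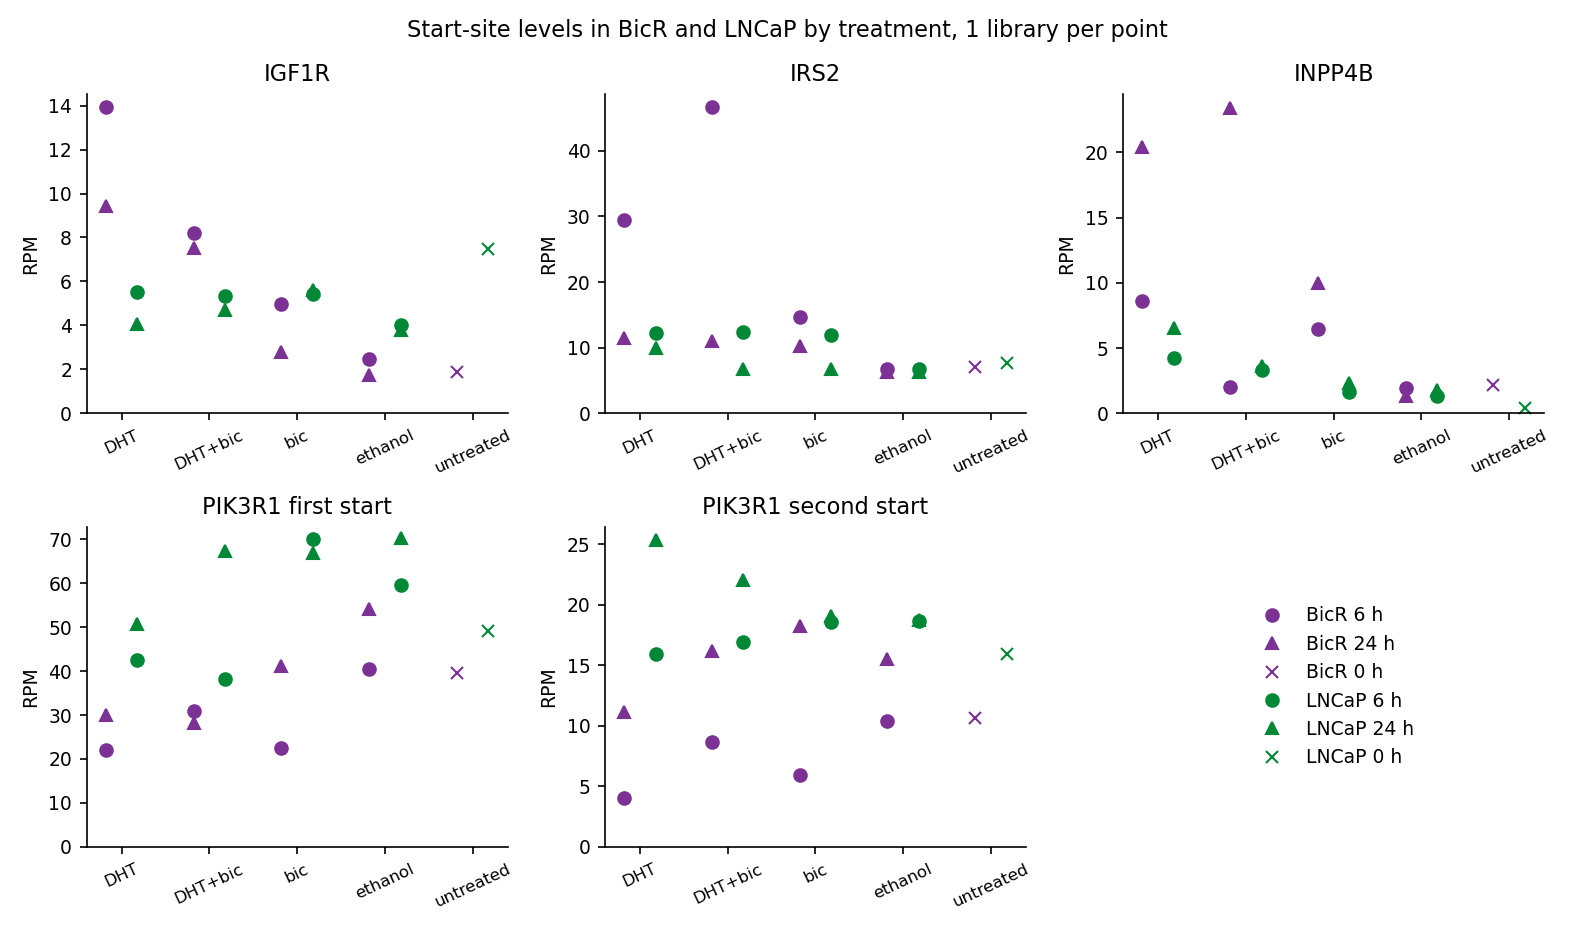
RPM of the 5 member sites by treatment in BicR (purple, left) and LNCaP (green, right), with 1 point per library (circles 6 h, triangles 24 h, crosses 0 h). In BicR the DHT libraries lie above the ethanol libraries for IGF1R, IRS2 and INPP4B and below them for the first PIK3R1 start.

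IGF1R had 13.9 RPM at 6 h and 9.44 at 24 h with DHT in BicR, against 2.47 and 1.74 RPM with ethanol. In LNCaP it had 5.54 and 4.08 RPM with DHT, against 4.004 and 3.79 RPM with ethanol. The groups did not overlap in either line, and the DHT libraries lay higher in each. The log2 change was 2.43 ± 0.331 in BicR (adjusted p = 0.00239), where the DHT library of 6 h is also the one that brought IGF1R into the table, and 0.35 ± 0.321 in LNCaP (adjusted p = 0.991). The difference between the lines' responses was 2.08 ± 0.466, with an unadjusted p of 0.000748 and an adjusted p of 0.628. In that comparison 0 of the 5 member sites and 0.0% of all 13294 passed. Before adjustment 2 members and 751 sites in all reached a p under 0.05, and DESeq2 called 0 members among its 3 sites.

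IRS2 had 29.5 RPM at 6 h and 11.5 at 24 h with DHT in BicR, against 6.76 and 6.29 RPM with ethanol. In LNCaP it had 12.2 and 10.0 RPM with DHT, against 6.67 and 6.32 RPM with ethanol. Both DHT libraries lay above both ethanol libraries in each line, and the BicR value at 6 h stood far above the rest. The log2 change was 1.50 ± 0.366 in BicR (adjusted p = 0.0451) and 0.80 ± 0.374 in LNCaP (adjusted p = 0.913). The call in BicR was lost without the DHT library of 6 h (adjusted p = 0.256) or 24 h (0.171), without the ethanol library of 6 h (0.405) and with no time term (0.373). The responses differed by 0.70 ± 0.527 between the lines (adjusted p = 0.899).

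INPP4B had 8.57 RPM at 6 h and 20.4 at 24 h with DHT in BicR, against 1.95 and 1.34 RPM with ethanol. In LNCaP it had 4.24 and 6.56 RPM with DHT, against 1.33 and 1.77 RPM with ethanol. In both lines the DHT libraries lay above the ethanol ones, with the higher DHT value at 24 h. The log2 change was 2.99 ± 0.655 in BicR (adjusted p = 0.0282) and 1.82 ± 0.692 in LNCaP (adjusted p = 0.781). The call in BicR was lost without the DHT library of 6 h (adjusted p = 0.127) or 24 h (0.183), without the ethanol library of 24 h (0.272) and with no time term (0.113). The responses differed by 1.17 ± 1.00 (adjusted p = 0.923).

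The first PIK3R1 start had 22.1 RPM at 6 h and 29.98 at 24 h with DHT in BicR, against 40.5 and 54.1 RPM with ethanol. In LNCaP it had 42.6 and 50.7 RPM with DHT, against 59.6 and 70.4 RPM with ethanol. The DHT libraries lay below the ethanol libraries in both lines. The log2 change was -0.89 ± 0.202 in BicR (adjusted p = 0.0335) and -0.43 ± 0.191 in LNCaP (adjusted p = 0.865). The call in BicR was lost without any 1 of its 4 libraries (adjusted p = 0.118 to 0.231), with no time term (0.161) and with library totals alone (0.0513). The second start had 4.07 and 11.1 RPM with DHT in BicR, against 10.4 and 15.5 RPM with ethanol, groups that overlapped, with a log2 difference of -0.86 ± 0.254 (adjusted p = 0.0992). In LNCaP it had 16.0 and 25.4 RPM with DHT, against 18.7 RPM in both ethanol libraries (log2 0.17 ± 0.215, adjusted p = 0.998). The responses of the lines differed by -0.46 ± 0.278 at the first start (adjusted p = 0.879) and by -1.03 ± 0.333 at the second (unadjusted p = 0.00905, adjusted p = 0.843).

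No unequal change among the PIK3R1 starts passed with DHT. The second start gave 15.6% of PIK3R1 tags at 6 h and 27.03% at 24 h with DHT in BicR, against 20.4% and 22.3% with ethanol. In LNCaP it gave 27.3% and 33.3% with DHT, against 23.9% and 21.0% with ethanol. The test of unequal change among starts gave an adjusted p of 1 in each line. DHT was sampled up to 24 h and R1881 up to 72 h, the compounds differ, the R1881 dose is uncertain, and the third start is not among the rows of this table, so the experiments are set side by side and were not compared by a test. Summed over both starts, PIK3R1 changed by -0.88 ± 0.183 with DHT in BicR (adjusted p = 0.0210), while the difference in LNCaP was -0.28 ± 0.173 (adjusted p = 0.987).

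**Figure D4:**
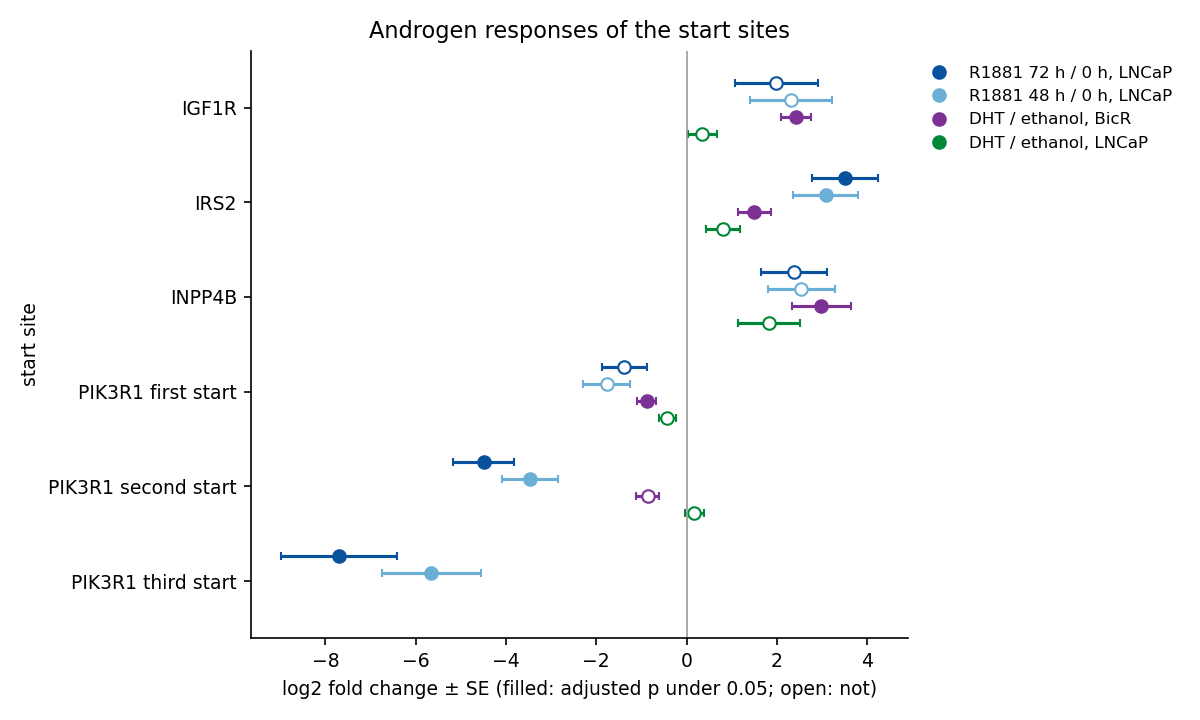
Log2 fold change ± SE of each start site for R1881 at 72 h and 48 h against 0 h in LNCaP (n = 2 each) and DHT against ethanol in BicR and in LNCaP (6 and 24 h as 2 libraries each), with filled points for an adjusted p under 0.05. IGF1R, IRS2 and INPP4B lie to the right of 0 and the first PIK3R1 start to the left in all 4 comparisons, and the third PIK3R1 start is in the R1881 table only.

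IGF1R and IRS2 were higher in BicR with DHT and bicalutamide together than with ethanol. IGF1R had 8.22 RPM at 6 h and 7.50 at 24 h with both compounds, against 2.47 and 1.74 RPM with ethanol, a log2 change of 1.94 ± 0.342 (adjusted p = 0.0126). IRS2 had 46.7 and 11.0 RPM with both, against 6.76 and 6.29 RPM with ethanol, a log2 change of 1.93 ± 0.362 (adjusted p = 0.0163). These 2 of 5 member sites passed, both higher, where 2.64% of sites did (1.92% higher, 0.722% lower). Both sites are among the rows tested through treated libraries only, so this count is a description. IGF1R lost its call without either ethanol library (adjusted p = 0.0808 and 0.0584) and with no time term (0.0911), and IRS2 without the ethanol library of 6 h (0.216) and with no time term (0.228).

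The odd BicR library of 6 h belongs to this group, and its values shift several of these results. Its IRS2 level of 46.7 RPM was the highest of all 18 libraries, and its INPP4B level of 2.005 RPM stood against 23.4 RPM in the 24 h library of the same treatment. Without it, the 24 h library alone stands for both compounds, so only the log2 changes of the sites against ethanol are given. IGF1R changed by 2.19, and IRS2 by 1.17, which is less than with the odd library. INPP4B changed by 3.48, against 2.67 with the odd library (adjusted p = 0.0583). INPP4B is in the table through treated BicR libraries only, that 24 h library among them, so its change is a description. The first PIK3R1 start changed by -0.99, against -0.66 with the odd library (adjusted p = 0.117). Without it 3.27% of 13211 sites passed.

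Between DHT with bicalutamide and DHT alone, 0 of 5 member sites passed in BicR by edgeR's quasi-likelihood test, where 0.128% of sites did. DESeq2 called 0 there, and 1 member site reached a p under 0.05 before adjustment. IGF1R differed by -0.49 ± 0.287 (adjusted p = 0.668) and INPP4B by -0.32 ± 0.523 (adjusted p = 0.900) there. Without the 24 h library of both compounds INPP4B differed by -2.38, where the odd library alone stands for both compounds. The direction turned for 3 sites without the odd library, where the 24 h library alone stands for both compounds. INPP4B turned to 0.46, IRS2 to -0.35 from 0.43 with the odd library, and the first PIK3R1 start to -0.09 from 0.22 with it. In LNCaP 0 of 5 passed against DHT (0.0% of sites) and 0 of 5 against ethanol (0.00752% of sites). DESeq2 called 0 in both LNCaP comparisons, and before adjustment 0 member sites reached a p under 0.05.

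With bicalutamide alone, 0 of 5 member sites passed against ethanol in BicR, where 0.188% of sites did, by edgeR's quasi-likelihood test. Before adjustment 4 reached a p under 0.05, and DESeq2 called 0. The share of all sites under that unadjusted p is not given here, so the 4 are not read as a response. INPP4B had 6.49 RPM at 6 h and 10.0 at 24 h with bicalutamide in BicR, against 1.95 and 1.34 RPM with ethanol, groups that did not overlap. Its log2 change was 2.35 ± 0.671 (adjusted p = 0.315), and without the odd library, which is not in this comparison but enters the common fit, it was 2.32 (adjusted p = 0.0136), where 0.863% of sites passed. INPP4B is in the table through treated BicR libraries only, that of bicalutamide at 24 h among them, so these p-values support nothing. IRS2 had 14.6 and 10.2 RPM with bicalutamide, against 6.76 and 6.29 RPM with ethanol (log2 0.97 ± 0.373, adjusted p = 0.617). IGF1R had 4.98 and 2.79 RPM with bicalutamide, against 2.47 and 1.74 RPM with ethanol (log2 0.93 ± 0.357, adjusted p = 0.618). In LNCaP 0 of 5 passed with bicalutamide in edgeR and DESeq2 (0.0% of sites in edgeR), and 0 reached a p under 0.05 before adjustment.

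The order of treatments in BicR was the same for IGF1R at both times: DHT was highest, then DHT with bicalutamide, then bicalutamide, then ethanol. At 6 h the place of DHT with bicalutamide rests on the odd library alone, and without it only the order at 24 h holds all 4 treatments. DHT and DHT with bicalutamide were neighbours whose difference did not pass the test, and the same held for bicalutamide and ethanol. Untreated BicR had 1.90 RPM of IGF1R, within the range of the ethanol libraries. Untreated LNCaP had 7.49 RPM, the highest of the 9 LNCaP libraries, whose lowest was 3.79 and median 5.33 RPM. For INPP4B untreated LNCaP was lowest of its line at 0.374 RPM, from 2 tags, and untreated BicR had 2.13 RPM.

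Because each line has its own term for 24 h, the fitted difference between the lines is that at 6 h. That term is common to all treatments of a line, so the fitted ethanol value draws on both ethanol libraries of each line. It can differ from the 6 h libraries themselves. The mean of both times was added after seeing the data. With ethanol, 0 of 5 member sites passed between BicR and LNCaP at 6 h by edgeR's quasi-likelihood test, where 5.43% of sites did. DESeq2 called 0 as well, and 1 member site reached a p under 0.05 before adjustment. As the mean of 6 and 24 h 0 of 5 passed too, where 11.0% of sites did, and 2 reached a p under 0.05 before adjustment. The second PIK3R1 start had 10.4 RPM at 6 h and 15.5 at 24 h in BicR, against 18.7 RPM in both LNCaP libraries. It differed by -0.86 ± 0.257 at 6 h (adjusted p = 0.0739) and by -0.51 ± 0.228 over both times (adjusted p = 0.170). IGF1R differed by -0.62 ± 0.393 at 6 h (adjusted p = 0.400) and by -0.84 ± 0.363 over both times (adjusted p = 0.154). IRS2 differed by 0.40 ± 0.442 in the fit at 6 h (adjusted p = 0.664) and by 0.04 ± 0.407 over both times (adjusted p = 0.974). Its ethanol libraries at 6 h lay close together, with 6.76 RPM in BicR and 6.67 RPM in LNCaP. INPP4B differed by -0.24 ± 0.923 in the fit at 6 h (adjusted p = 0.925) and, with the direction turned, by 0.14 ± 0.836 over both times (adjusted p = 0.948). The ethanol libraries at 6 h lay the other way from the fitted value, with 1.95 RPM in BicR and 1.33 RPM in LNCaP. At 24 h they had 1.34 RPM in BicR and 1.77 RPM in LNCaP.

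Over all 4 treatments, both PIK3R1 starts were lower and IRS2 was higher in BicR. These 3 of 5 member sites passed in the fitted difference at 6 h, where 27.9% of sites did (13.7% higher, 14.2% lower). As the mean of 6 and 24 h these and INPP4B passed, where 46.7% of sites did (24.3% higher, 22.4% lower), so the counts stand beside a high background. INPP4B is in the table through treated BicR libraries only, so its call and p-values between the lines support nothing. IRS2 is there through treated libraries of both lines, 6 of BicR and 4 of LNCaP, so its difference is given as a description. Across the 9 libraries of each line the first PIK3R1 start ran from 22.1 to 54.1 RPM (median 30.9) in BicR and from 38.3 to 70.4 RPM (median 59.6) in LNCaP. The second ran from 4.07 to 18.3 RPM (median 10.7) in BicR and from 15.9 to 25.4 RPM (median 18.7) in LNCaP. The ranges overlapped at both starts. At 6 h the log2 difference was -0.78 ± 0.142 at the first start (adjusted p = 0.00211) and -1.23 ± 0.175 at the second (adjusted p = 0.000548). Over both times it was -0.79 ± 0.0988 at the first (adjusted p = 5.78e-05) and -0.88 ± 0.117 at the second (adjusted p = 9.03e-05). IRS2 ran from 6.29 to 46.7 RPM (median 11.0) in BicR and from 6.32 to 12.4 RPM (median 7.67) in LNCaP, with a log2 difference at 6 h of 1.02 ± 0.242 (adjusted p = 0.00890), or 0.67 without the odd library (adjusted p = 0.0249). Over both times it was 0.66 ± 0.181 (adjusted p = 0.0100), or 0.48 without the odd library (adjusted p = 0.0117), and the call was lost with no time term (adjusted p = 0.0837). INPP4B differed by 0.91 at 6 h (adjusted p = 0.190), or 1.43 without the odd library (adjusted p = 0.00491), and by 1.28 ± 0.336 over both times (adjusted p = 0.00787). With no time term it was 1.38 (adjusted p = 0.0199). Without the odd library 29.7% of sites passed at 6 h and 49.5% over both times.

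Levels also changed between 6 and 24 h in BicR. Over the 4 treatments IRS2 was lower at 24 h (9.76 ± 2.38 RPM) than at 6 h (24.4 ± 17.6 RPM; SD, n = 4 each), a log2 change of -1.24 ± 0.246 (adjusted p = 0.00617). The second PIK3R1 start was higher at 24 h (15.3 ± 3.01 RPM) than at 6 h (7.25 ± 2.81 RPM), a log2 change of 0.97 ± 0.177 (adjusted p = 0.00444). These 2 of 5 passed, 1 higher and 1 lower, where 21.6% of all sites did (11.3% higher, 10.3% lower), and both also passed without the odd library (adjusted p = 0.0178 and 0.0125). IGF1R passed without that library (log2 -0.78, adjusted p = 0.0446, against -0.61 and 0.0683 with it), where 12.4% of sites did. IGF1R is in the table through 1 BicR library of 6 h only, that with DHT, so its p-values here support nothing. In LNCaP 0 of 5 passed between these times (0.88% of sites in edgeR). DESeq2 called 0 too, and 1 reached a p under 0.05 before adjustment.

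Across the 18 libraries of both lines the first PIK3R1 start correlated negatively with IRS2 and INPP4B, which is a description, since the libraries share lines and treatments. On log2(RPM + 1), IGF1R and IRS2 correlated at r = 0.652, and the PIK3R1 starts with each other at 0.804. IRS2 and the first PIK3R1 start correlated at -0.657, and INPP4B and that start at -0.602. Among 10568 hg19 sites with a mean of at least 10 RPM outside the windows, the site most like IGF1R lay at chr20:10654646 (minus strand, r = 0.9214). The next site was almost level with it (r = 0.9212). The most like IRS2 lay at chr6:134496001 (minus strand, r = 0.936, or 0.899 without the odd library), and the most like INPP4B at chr6:53213747 (minus strand, r = 0.961). For the first PIK3R1 start it lay at chr5:68788616 (plus strand, r = 0.977), on the same chromosome.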

How the data were processed

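CAGE tags were read on a HeliScope sequencer per the labels' protocols and placed on hg19 per the submitters' processing notes; the aligner, the site caller and any strand or low-count filter are not given in the sources used here. Per the file headers, the deposited tables give whole-number tag counts per start site, not normalized. They also give RPM, the deposited counts times 1 factor per library, which implies a total above the table's own sum. Sites of the R1881 table are clusters, and those of the other are single positions that each reached at least 10.0 RPM in some library.

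The deposited counts were tested in R 4.3.3 with edgeR 4.0.16 (TMM, filterByExpr with a minimum count of 10, quasi-likelihood F test), with Benjamini-Hochberg adjustment over all sites and a threshold of 0.05. SE is the size of the log2 change over the square root of F. Counts of member sites with an unadjusted p under 0.05 are not read as results. The number of all sites stands beside them only for the lines' difference in DHT response. The time course had a coefficient per time over 14 libraries. Late against early used the 8 libraries of 3, 6, 48 and 72 h. The 18 libraries of both lines had a coefficient per line and treatment and a term for 24 h against 6 h in each line, so fitted differences between the lines are those at 6 h. The 24 h term is common to all treatments of a line. For sums, the sites of a gene were added to 1 row. For start-site usage, sites outside the members' windows were joined when the next lay within 10000 bp. The fits were tested on simulated counts with known changes. Those counts held no paired replicates and no odd libraries, so they check the code and not the calls given here. Alternatives were RLE scaling, library totals alone, no filter, DESeq2 1.42.0, the replicate block, no time term, all 14 libraries for late against early, and leaving out libraries; the fit without the odd BicR library and the lines' difference as the mean of 6 and 24 h were added after seeing the data. Intervals are exact binomial at 95% and, like the limit of 3 tags, cover counting error only.

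Replicate numbers come from the titles. After each time's mean was taken off, libraries with the same number correlated over 15999 sites at more than 0.1 in all 21 of 21 pairs of times (lowest 0.142, median 0.332, highest 0.566). Libraries with the same number thus shared deviations across times, and a block for the number was used as an alternative. Depth differed by number too, so the check cannot show that the libraries were made in pairs.

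All 5 genes are named by the choice of members. The site with the highest mean RPM in a table is its gene's leading site, others are described singly where they passed, and the most alike sites were found by Pearson correlation. The members and lists were chosen with earlier results of these data known. Other genes of the pathway are not analysed here, since no hg19 annotation was used to find their sites.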

Additional observations from a re-analysis of the deposited data

How the results depend on the processing

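The limits are depth and replication. Replicate 1 of the time course holds few tags per member site, 2 libraries stand for each time, and 6 and 24 h libraries stand in for replicates in the table of both lines. R1881 and time in culture cannot be told apart, since no vehicle library follows 0 h.

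Of the counts of member sites that passed, 203 values under the alternatives lay within 1.5 times the reported count and 26 did not. With the replicate block 6 h, 12 h and 18 h gave 1 each, 48 h gave 6 and 72 h gave 5; the block changed no other count of a single time or of late against early times. At 18 h, RLE scaling, no filter and DESeq2 each gave 1. With no time term the count for DHT in BicR was 1 and for DHT with bicalutamide against ethanol in BicR 0. Without the odd BicR library, bicalutamide in BicR gave 1, and with library totals alone BicR against LNCaP with ethanol at 6 h gave 1. Leaving out 1 library at a time gave 0 to 1 at 6 h and 18 h, 0 throughout for 48 h, 1 to 2 for 72 h, 1 to 2 for DHT in BicR, 0 to 1 for DHT with bicalutamide against DHT in BicR and 0 to 3 against ethanol. It gave an adjusted p of 0.01325 to 0.2342 for unequal change among the PIK3R1 starts.

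Over all comparisons and member sites tested, leaving out 1 library gave 107 log2 ranges, of which 24 crossed 0 (6 of 42 with R1881, 18 of 65 in the lines), none for a value that had passed. Of values for single sites in the comparisons described site by site, which leave out those given only as counts, 633 kept direction and side of the threshold, 32 gained a call, 42 lost one and 18 turned direction. Among these the ranges crossed 0 for the second PIK3R1 start with DHT in LNCaP (-0.103 to 0.413, with -0.003 between), with bicalutamide in BicR (-0.590 to 0.159, with 0.022 between) and with both compounds against ethanol in BicR (-0.517 to 0.232, with 0.038 between). Between the lines with ethanol at 6 h the ranges were -0.078 to 1.148 for IRS2 and -1.443 to 0.682 for INPP4B, which also turned with no time term (0.144) without the odd library (0.091, the sum included), and as the mean of 6 and 24 h (0.143, or 0.164 also without the odd library). For both compounds against DHT in BicR the ranges were -0.088 to 0.569 for the first PIK3R1 start, -2.383 to 0.458 for INPP4B (its sum 0.458) and -0.348 to 0.951 for IRS2, and the values that turned were those without the odd library. The cause of these changes was not tested.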
